A study of Saccharomyces cerevisiae with 15 samples.

Results

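The comparison was between wild type budding yeast (Saccharomyces cerevisiae) expressing a huntingtin fragment with 103 glutamines (Htt103Q) and the same strain expressing the fragment with 25 glutamines (Htt25Q). It rested on 6 of the 15 arrays of the series, 3 for each fragment, chosen by their sample titles. Every array was an Affymetrix yeast expression array, and all 9275 yeast probe sets were compared, without the control probe sets. Both groups were of the BY4741 background, mating type a, and differed, per the labels, only in the fragment, whose expression was induced by galactose. The cells were grown at 30 °C in 12 mL of synthetic medium that lacked uracil and held 2% galactose. Cultures were started at an OD600, the optical density that tracks cell number, of 0.2 and harvested near 1 for total RNA. The labels do not say whether the 3 arrays of a group came from separate cultures, so each p-value measures the spread between these arrays, which may be technical. A further group, a ume1 deletion strain that also expressed Htt103Q, was processed in the same set of arrays and entered only the estimate of spread. The level of the huntingtin fragment itself was not analysed here.

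Huntington's disease is caused by the expansion of a run of glutamines in huntingtin, a protein that yeast lacks. Fragments with a long run misfold and gather into inclusions, and in yeast their toxicity depends on other proteins of the cell that are prone to aggregate. Misfolded proteins in the cytosol are met by chaperones of the Hsp70, Hsp90 and small heat shock families, many of them under the transcription factor Hsf1, and are then refolded, sorted into deposits or degraded by the proteasome. Yeast under stress also commonly lowers the expression of genes that build ribosomes and raises a broad stress programme under the factors Msn2 and Msn4.

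Arrays 2 and 3 of Htt25Q resembled each other, while array 1 stood apart. The median absolute difference between 2 arrays over all probe sets was 0.105 for Htt25Q arrays 2 and 3, 0.359 and 0.369 for array 1 against them, and 0.0982 to 0.183 among the Htt103Q arrays, on the log2 scale. The actin probe set at the 3′ end exceeded the one at the 5′ end by 2.48 in Htt25Q array 1, and by -0.33 to 0.31 in the other 14 arrays of the series. A difference of this kind marks shortened RNA. Most results below are therefore given with all arrays and without Htt25Q array 1, which leaves 2 Htt25Q arrays. The counts of genes in a list whose arrays did not overlap rest on all arrays, as do results given only once. Most markers of the strain went with its labels. STE2, the receptor that a cells use for alpha factor, lay between 8.27 and 10.3 in the 6 arrays. STE3, its alpha cell counterpart, lay between 2.53 and 3.32, close to the lowest value of 2.06. SAG1, the other alpha cell gene measured, lay higher, between 4.87 and 5.14. LEU2 and MET17, which BY4741 lacks, lay at 2.06 to 2.57, while HIS3, of which the strain keeps a part, lay at 9.27 to 10.8. GAL1, GAL2, GAL7 and GAL10, which take up and use galactose, lay between 12.4 and 13.4 in both groups, and no gene of the 11 in the galactose list passed the limma test (0 at an unadjusted p under 0.05). URA3, which lets cells grow without uracil, measured 8.98, 8.66 and 8.85 in Htt103Q, against 11.5, 9.54 and 9.10 in Htt25Q. That difference of -1.21 did not pass (adjusted p = 0.532), and without Htt25Q array 1 it was -0.49 (adjusted p = 0.758).

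Of the 9275 probe sets, 134 passed a Benjamini-Hochberg adjusted p of 0.05 in limma's moderated test, which is 1.44% of those tested. In Htt103Q, 77 of them were higher (0.83%) and 57 lower (0.615%). They belonged to 126 genes, and 7 probe sets had no gene symbol. For all 134, the 3 Htt103Q arrays lay on one side of the 3 Htt25Q arrays, as they did for 18% of all probe sets (8.42% above and 9.61% below). The changes were large for some genes: 86 of the 134 differed by at least 2-fold, 28 by at least 4-fold (20 up and 8 down) and 14 by at least 8-fold. Without Htt25Q array 1, 205 probe sets passed (2.21%), 108 of them higher (1.16%) and 97 lower (1.05%), and 88 passed both ways, 53 higher and 35 lower. These 88 were between 1.24-fold and 32.6-fold higher, or between 1.27-fold and 10.2-fold lower, in Htt103Q. For 85 of the 88, removing array 1 moved the log2 difference by less than 0.5. At an unadjusted p under 0.05 there were 1146 probe sets with all arrays and 1299 without array 1.

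The number of calls depended on the single arrays. All 134 kept their sign in all 20 alternative settings, but most of these settings could not have changed it. Since the groups did not overlap for any of the 134, leaving out an array cannot reverse the sign of the mean difference. Leaving out Htt103Q array 1, 2 or 3 gave 86, 14 and 36 calls, leaving out Htt25Q array 2 or 3 gave 90 and 93, and leaving out array 1, 2 or 3 of the ume1 strain gave 72, 49 and 63. The 14 calls without Htt103Q array 2 were the smallest number, and 13 of them were among the 134. A fit to the 6 compared arrays alone, without the ume1 arrays, gave 31 calls, 26 of them among the 134. In the text below, the number of these 9 leave-one-out fits in which a gene still passed is given in its paragraph for each gene called with all arrays, since a call that passed in few of them depended on the single arrays.

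**Figure D1:**
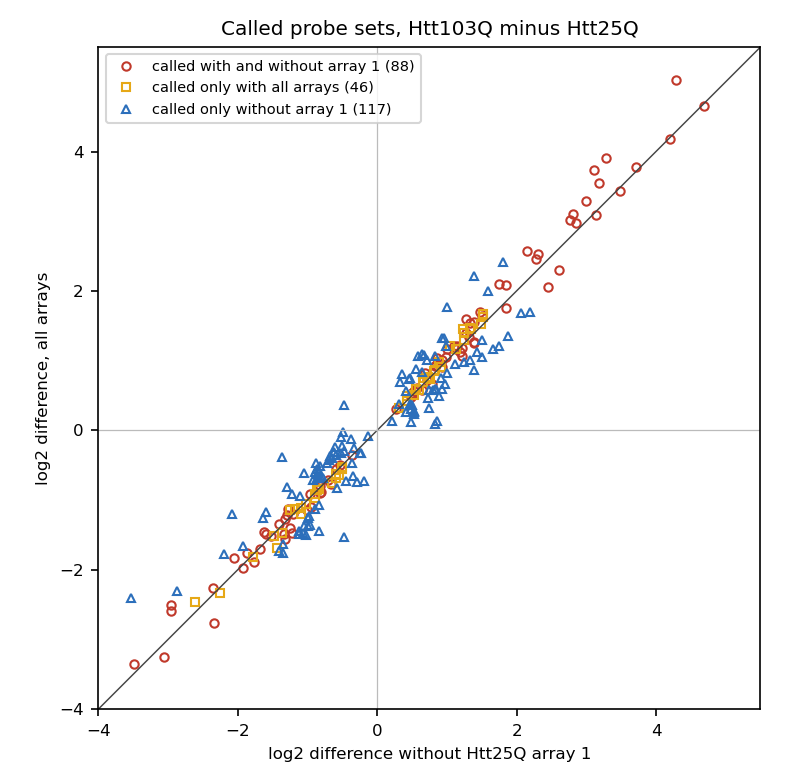
Log2 difference (Htt103Q minus Htt25Q) of each called probe set with all arrays (vertical axis) and without Htt25Q array 1 (horizontal axis); the diagonal marks equal values. The 88 probe sets called both ways lie near the diagonal, while the 117 called only without array 1 (blue triangles) scatter more widely around it.

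The genes that rose most encode proteins of the cell wall, of the heat shock response and of a few other functions. PIR3, a protein bound to the cell wall glucan, measured 11.96, 12.18 and 11.65 in Htt103Q, against 5.44, 6.95 and 8.32 in Htt25Q. The groups were far apart, but the Htt25Q arrays differed among themselves by more than 2 units. The difference of 5.03 ± 0.66 (SE) is 32.6-fold (adjusted p = 0.0255). Here and below, SE is the standard error of limma's moderated test, whose spread was pooled over the 9 fitted arrays, the ume1 strain included. Without Htt25Q array 1 the difference in PIR3 was 4.29 (adjusted p = 0.0128), and 2 of the 9 leave-one-out fits kept the call. DAK2, a dihydroxyacetone kinase, measured 7.05, 7.63 and 7.32 in Htt103Q, against 2.74, 2.74 and 2.54 in Htt25Q, where it lay near the bottom of the scale. All 9 fits kept this call. The difference was 4.66 ± 0.22 (SE), or 25.3-fold (adjusted p = 0.000585), and 4.69 without array 1 (adjusted p = 0.00276). ROQ1 was as tight. This small protein is cleaved under stress and turns the ubiquitin ligase Ubr1 towards misfolded proteins. It measured 8.76, 8.70 and 8.30 in Htt103Q, against 4.42, 4.24 and 4.53 in Htt25Q, a difference of 4.19 ± 0.14 (SE), or 18.2-fold (adjusted p = 0.000185). Without array 1 the difference was 4.20 (adjusted p = 0.000914), and 9 of 9 fits kept it.

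Other large rises followed the same split between tight and scattered Htt25Q arrays. BAG7, a GTPase-activating protein for the cell wall regulator Rho1, measured 7.07, 6.71 and 6.52 in Htt103Q, against 2.88, 2.77 and 3.34 in Htt25Q. It was 13.7-fold higher (log2 difference 3.77, adjusted p = 0.00511, and 3.72 with adjusted p = 0.0128 without array 1), and 9 of 9 fits kept it. NCW2, a cell wall protein, measured 12.11, 12.46 and 12.11 in Htt103Q, against 7.07, 8.73 and 9.15 in Htt25Q. Array 1 was the lowest of the Htt25Q arrays for NCW2, PIR3 and HSP30, and the difference in NCW2 of 3.91 (adjusted p = 0.0255) was 3.28 without it (adjusted p = 0.00268). NCW2 passed in 2 of 9 fits. CPP3 measured 10.52, 10.65 and 10.43 in Htt103Q, against 6.25, 6.86 and 7.84 in Htt25Q (difference 3.55, adjusted p = 0.0116, and 3.18 with adjusted p = 0.0114 without array 1), and 7 of 9 fits kept it. SPG1, a gene needed for survival of heat in stationary phase, measured 6.55, 6.53 and 6.40 in Htt103Q, against 2.96, 3.98 and 3.47 in Htt25Q (3.02, adjusted p = 0.00511, and 2.77 with adjusted p = 0.00268 without array 1). Every one of the 9 fits kept SPG1. CRG1, a methyltransferase that confers resistance to the poison cantharidin, was 7.87-fold higher, with 7.39, 7.68 and 7.67 in Htt103Q and 4.35, 4.75 and 4.72 in Htt25Q. It followed the 12 largest rises in size, and its adjusted p was 0.000585 with all arrays and 0.000874 without array 1, and 9 of 9 fits kept it.

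**Figure D2:**
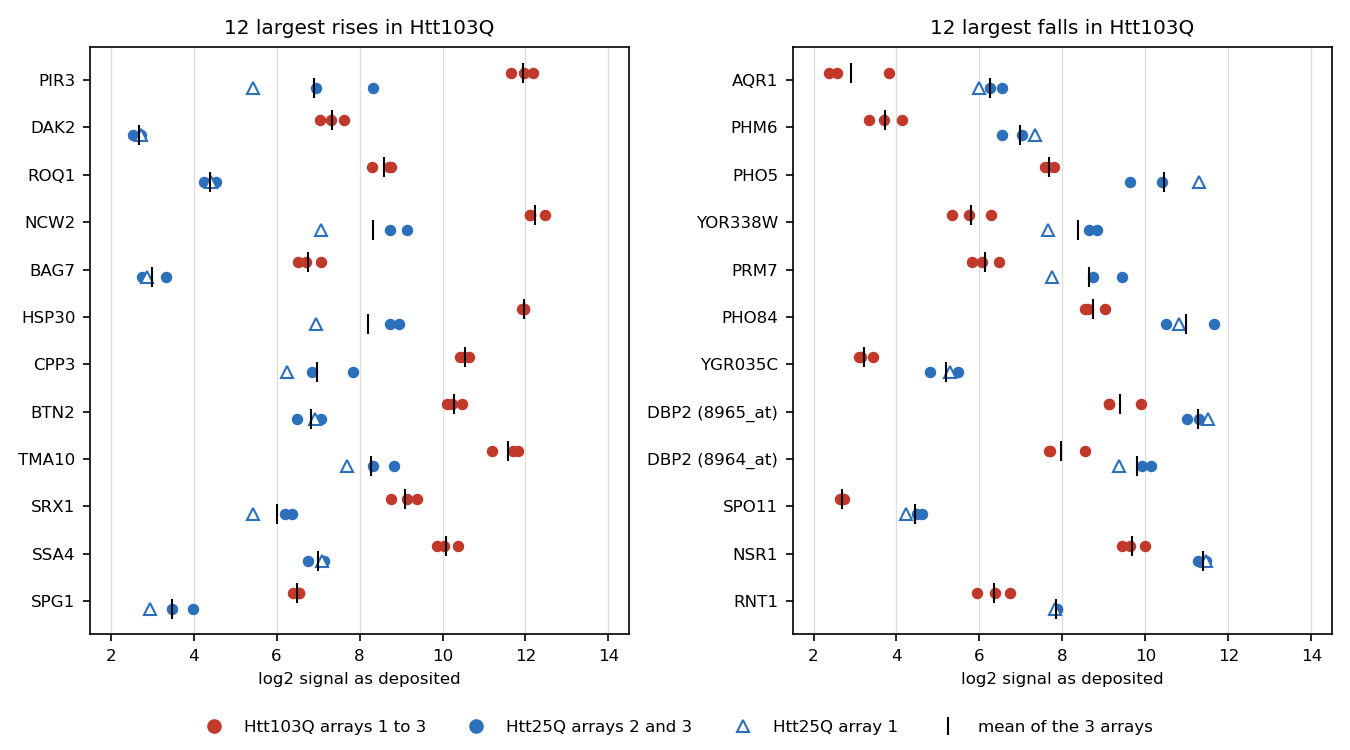
Deposited log2 signal in each array for the 12 largest rises (left) and the 12 largest falls (right) that passed with all arrays and without Htt25Q array 1. Htt103Q arrays (red) are drawn above Htt25Q arrays (blue; array 1 as an open triangle), and no gene has overlapping groups; DBP2 appears with both of its probe sets.

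Genes that heat shock factor controls were higher in Htt103Q, and a minority of them passed. Of 18 genes listed as dependent on Hsf1, all 18 had a positive log2 difference, against 48.9% of the 5656 genes measured, and in 15 of 18 the Htt103Q arrays lay wholly above the Htt25Q arrays, against 11.3% of genes. The adjusted test passed 5 of the 18, and none fell, against 1.26% of genes higher and 0.937% lower. These shares of all genes apply to every list below, and without array 1 they were 1.73% and 1.34%. The median difference of the list was 1.14 with all arrays and 0.75 without Htt25Q array 1, where 5 passed, 4 of them genes that also passed with all arrays (1.73% of all genes were then higher), against medians of -0.01 and 0.00 for all genes. Relative to the mean of the Htt103Q arrays, the list's median was -1.82 in Htt25Q array 1 and -0.69 and -0.79 in arrays 2 and 3. The part of the RNA quality of array 1 in its lower value was not tested, but arrays 2 and 3 alone lay below every Htt103Q array. The count of calls was 0 without Htt103Q array 2 and 1 to 3 without each of the other 7 arrays.

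BTN2, which collects misfolded proteins into deposits, had the largest rise on the Hsf1 list. It measured 10.12, 10.22 and 10.46 in Htt103Q, against 6.93, 7.07 and 6.50 in Htt25Q, and Htt25Q array 1 lay between the other two. The difference was 3.43, or 10.8-fold (adjusted p = 0.0255), and 3.48 without array 1 (adjusted p = 0.0457), with 3 of 9 fits keeping the call. CUR1, a relative of BTN2 with a like role, measured 7.92, 8.38 and 8.38 in Htt103Q, against 6.23, 7.52 and 7.26 in Htt25Q and did not pass (1.23, adjusted p = 0.198, and 0.84 with adjusted p = 0.127 without array 1). MBF1, a transcriptional coactivator whose deletion is among the strains of the series, measured 11.44, 11.61 and 11.43 in Htt103Q, against 10.01, 10.65 and 10.33 in Htt25Q, a rise of 1.16 (adjusted p = 0.0311) that was 1.00 without array 1 (adjusted p = 0.0301). MBF1 passed in 2 of 9 fits. The other 2 genes deleted in the series did not pass. BNA4, of the pathway from tryptophan to NAD, differed by -0.33 (adjusted p = 0.434, and -0.27 without array 1), and UME1, a subunit of a histone deacetylase complex, by -0.06 (and -0.12 without array 1).

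Among the cytosolic Hsp70 chaperones, the stress-inducible copies rose, SSA3 only without array 1, and the constitutive ones did not pass. SSA4, an inducible Hsp70, measured 10.36, 10.03 and 9.87 in Htt103Q, against 7.09, 6.77 and 7.13 in Htt25Q. With arrays this close within each group it passed in all 9 fits, at 3.09 ± 0.15 (SE), or 8.51-fold (adjusted p = 0.000585), and 3.14 without array 1 (adjusted p = 0.00268). SSA3, the other inducible copy, measured 8.27, 8.29 and 8.25 in Htt103Q, against 7.57, 5.97 and 6.18 in Htt25Q. Here array 1 was the Htt25Q array nearest to Htt103Q, and SSA3 passed only without it (2.20, adjusted p = 0.00428, against 1.70 with adjusted p = 0.129 for all arrays). SSA1, expressed at all times, measured 13.59, 12.98 and 12.67 in Htt103Q, against 13.10, 12.85 and 12.89 in Htt25Q. These groups overlapped (0.13, adjusted p = 0.939, and 0.21 without array 1), and SSA2, with 12.97, 12.68 and 12.28 in Htt103Q against 12.26, 12.14 and 12.03 in Htt25Q, did not pass (0.50, adjusted p = 0.41, and 0.56 without array 1). SSA1 and SSA2 are near-identical, so their probe sets may share signal. Partners of Hsp70 rose as well. SSE2, an Hsp110, measured 10.36, 10.45 and 10.35 in Htt103Q, against 8.43, 9.01 and 9.10 in Htt25Q (1.54, adjusted p = 0.0244, and 1.33 with adjusted p = 0.0146 without array 1), with 5 of 9 fits keeping the call, while its paralog SSE1 differed by 0.33 with and without array 1 (adjusted p = 0.42 and 0.514). FES1, which exchanges the nucleotide of Hsp70, measured 9.54, 9.69 and 9.42 in Htt103Q, against 8.45, 8.48 and 8.17 in Htt25Q. It was 2.27-fold higher (adjusted p = 0.0114, and 0.0226 without array 1), and 8 of 9 fits kept it. In all, 3 of the 10 genes in this list passed upward and 4 without array 1, against 1.26% and 1.73% of all genes, with medians of 0.42 and 0.45.

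The small heat shock and sorting factors had 4 of 9 genes up with all arrays and the same number without array 1, against 1.26% and 1.73% of all genes, and none down. The list's median was 1.23 with all arrays and 1.00 without array 1, and the count fell to 0 without any single Htt103Q array or without ume1 array 2. HSP30, a membrane protein that restrains the plasma membrane proton pump, measured 11.97, 11.97 and 11.92 in Htt103Q, against 6.95, 8.74 and 8.95 in Htt25Q. It was 13.4-fold higher with all arrays (3.74, adjusted p = 0.0255). Removing array 1, the lowest, left a difference of 3.11 with a smaller adjusted p of 0.000165. HSP26, a small heat shock protein that binds unfolded proteins, measured 11.82, 12.22 and 12.33 in Htt103Q, against 9.13, 9.26 and 10.38 in Htt25Q (2.54, adjusted p = 0.03, and 2.31 with adjusted p = 0.0456). HSP30 passed in 3 of 9 fits and HSP26 in 2. HSP42 and the disaggregase HSP104 did not pass in either fit. HSP42 measured 10.79, 11.12 and 10.92 in Htt103Q, against 8.83, 9.88 and 9.85 in Htt25Q (1.43, adjusted p = 0.157, and 1.08 with adjusted p = 0.178 without array 1), and HSP104 measured 10.88, 11.40 and 11.48 in Htt103Q, against 9.24, 10.45 and 10.53 in Htt25Q (1.18, adjusted p = 0.306, and 0.76 with adjusted p = 0.392 without array 1). For both genes the Htt103Q arrays lay above all Htt25Q arrays.

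Partners of Hsp90 passed with all arrays, and Hsp90 itself did not. CPR6, a cyclophilin bound to Hsp90, measured 10.88, 11.05 and 10.73 in Htt103Q, against 9.71, 9.80 and 10.11 in Htt25Q, a rise of 1.01 (adjusted p = 0.0244, and 0.93 with adjusted p = 0.0403 without array 1). AHA1, which stimulates the ATPase of Hsp90, rose by 0.75 with all arrays (adjusted p = 0.0413) and missed the threshold without array 1 (0.67, adjusted p = 0.0635). HSP82, the inducible Hsp90, measured 12.69, 12.72 and 12.75 in Htt103Q, against 10.60, 11.82 and 11.74 in Htt25Q. It passed only without array 1 (0.94, adjusted p = 0.0128, against 1.33 with adjusted p = 0.128). Its constitutive paralog HSC82 differed by 0.33 (adjusted p = 0.493, and 0.24 without array 1), and its arrays overlapped between the groups. Of the 14 genes in the Hsp90 list, 2 rose with all arrays and 2 without array 1. The shares of all genes were 1.26% and 1.73%. Among 12 J-domain co-chaperones, which hand clients to Hsp70, APJ1 alone passed, at 6.12, 6.25 and 6.16 in Htt103Q and 4.44, 5.06 and 4.62 in Htt25Q (1.47, adjusted p = 0.0317), and it missed the threshold without array 1 (adjusted p = 0.0512). APJ1 passed in 2 of 9 fits, CPR6 in 3 and AHA1 in 1. SIS1, a J-domain protein needed to propagate yeast prions, measured 11.78, 12.16 and 12.14 in Htt103Q, against 10.005, 11.27 and 11.29 in Htt25Q, and did not pass (1.17, adjusted p = 0.251, and 0.74 with adjusted p = 0.151 without array 1).

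Other folding systems gave few calls. Of 14 genes for the TRiC chaperonin and prefoldin, which fold actin and tubulin, limma called 0, with 2 at an unadjusted p under 0.05 and medians of -0.06 and, without array 1, -0.01. Of 17 mitochondrial chaperones and import factors it called 0, with 4 at an unadjusted p under 0.05. HSP60 had the smallest p among them, at 12.62, 12.60 and 12.38 in Htt103Q and 12.20, 12.09 and 12.07 in Htt25Q (0.41, adjusted p = 0.0787, and 0.45 with adjusted p = 0.0784 without array 1). Of 25 genes for folding in the endoplasmic reticulum and for the unfolded protein response, none was called higher and 5 had a positive difference. The only call was OPI3, a methyltransferase of phosphatidylcholine synthesis rather than a folding factor. OPI3 fell to 12.43, 12.38 and 12.28 in Htt103Q, against 13.05, 12.86 and 13.05 in Htt25Q (-0.62, adjusted p = 0.0427, and -0.59 with adjusted p = 0.0722 without array 1), and passed in 1 of 9 fits.

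Most proteasome genes had small positive differences and did not pass. Of 46 genes, 37 had a positive difference with all arrays, against 48.9% of all genes, and 40 without array 1, with medians of 0.25 and 0.20. The calls were 2 with all arrays and 4 without array 1, all upward, against 1.26% and 1.73% of all genes, and there were 0 without Htt103Q array 2 or 3. RPN4, the transcription factor that drives proteasome genes, measured 9.16, 9.67 and 9.73 in Htt103Q, against 7.64, 8.22 and 8.05 in Htt25Q (1.55, adjusted p = 0.0317, and 1.38 with adjusted p = 0.0476 without array 1), and 2 of 9 fits kept it. PRE10, a subunit of the 20S core, rose by 0.53 with 10.90, 10.82 and 10.79 in Htt103Q and 10.23, 10.38 and 10.30 in Htt25Q (adjusted p = 0.0176, and 0.0303 without array 1), and 7 of 9 fits kept it. PRE8 and RPN7, also subunits, passed only without array 1, at 0.64 (adjusted p = 0.0128) and 0.46 (adjusted p = 0.034). In the list of 28 ubiquitin genes, ROQ1 alone passed with all arrays, and DDI1, a shuttle protein with a protease fold, joined it without array 1 (0.80, adjusted p = 0.0226). OPI10, whose human relative Hikeshi carries Hsp70 into the nucleus, was chosen for mention after its values were seen. It measured 7.45, 7.69 and 7.63 in Htt103Q, against 6.0, 5.69 and 5.80 in Htt25Q, was 3.39-fold higher (adjusted p = 0.0017, and 0.00268 without array 1), and passed in 9 of 9 fits.

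**Figure D3:**
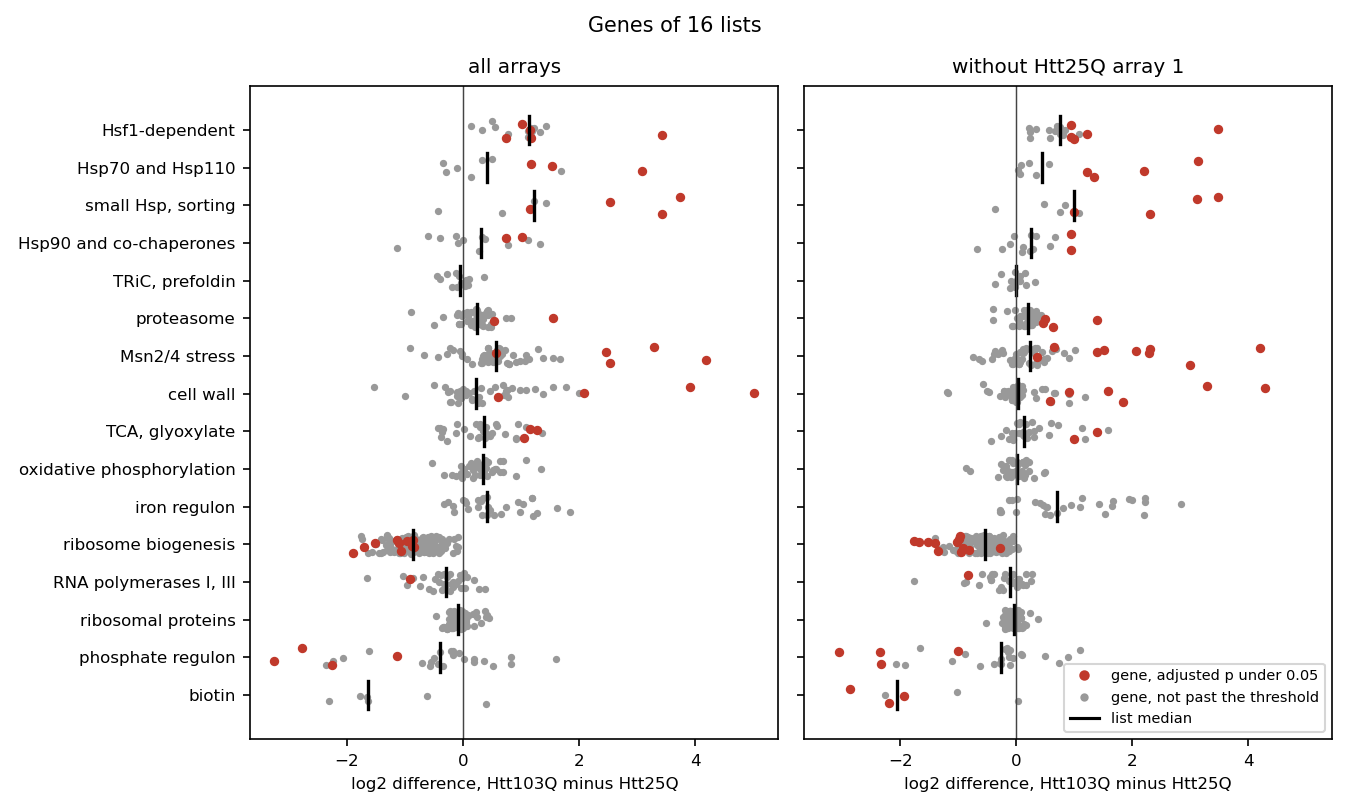
Log2 difference (Htt103Q minus Htt25Q, horizontal axes) of each gene in 16 lists, with all arrays (left) and without Htt25Q array 1 (right); red points passed an adjusted p of 0.05 and black bars mark list medians. The Hsf1 list lies above 0 and the ribosome biogenesis list below 0 in both panels, and the median of oxidative phosphorylation genes is 0.35 on the left and 0.01 on the right.

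The broad stress programme had a smaller median difference without Htt25Q array 1. Of 55 genes listed under Msn2 and Msn4, 46 had a positive difference with all arrays, against 48.9% of all genes, and 41 without array 1, and the median was 0.58 and then 0.23. Relative to the Htt103Q mean, the list's median was -1.11 in Htt25Q array 1 but -0.24 and -0.17 in arrays 2 and 3, and the part of the RNA quality of array 1 in its value was not tested. The calls were 5 with all arrays and 9 without array 1, all upward, against 1.26% and 1.73% of all genes, and 5 genes were called both ways, while leaving out Htt103Q array 2 left 1. TMA10, a protein that associates with ribosomes, measured 11.19, 11.82 and 11.70 in Htt103Q, against 7.69, 8.83 and 8.34 in Htt25Q (3.29, or 9.76-fold, adjusted p = 0.00853, and 2.99 with adjusted p = 0.00915 without array 1), and 8 of 9 fits kept it. MOH1 measured 6.16, 5.79 and 5.69 in Htt103Q, against 3.06, 3.60 and 3.59 in Htt25Q (2.46, adjusted p = 0.0114, and 2.28 with adjusted p = 0.0201), and 8 of 9 fits kept it. HSP12, one of the genes most used as a marker of this programme, did not pass: it measured 13.25, 13.52 and 13.32 in Htt103Q, against 12.29, 12.45 and 13.33 in Htt25Q (0.67, adjusted p = 0.367, and 0.47 without array 1), near the top of the scale, and Htt25Q array 3 lay among the Htt103Q arrays.

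Of 39 genes for oxidative defence, SRX1 and GPX2 rose with all arrays, against 1.26% of all genes. SRX1, the sulfiredoxin that repairs oxidised peroxiredoxins, measured 9.39, 9.15 and 8.76 in Htt103Q, against 5.42, 6.21 and 6.36 in Htt25Q. It was 8.58-fold higher (3.10, adjusted p = 0.0131, and 2.81 with adjusted p = 0.0177 without array 1), and 8 of 9 fits kept it. GPX2, a peroxidase, measured 6.96, 7.40 and 7.43 in Htt103Q, against 5.37, 5.98 and 6.09 in Htt25Q, but its call passed in 0 of 9 fits (1.45, adjusted p = 0.0467, and 1.23 with adjusted p = 0.0515 without array 1). The list's median was 0.17 with all arrays and 0.04 without array 1. Without array 1, SRX1 was the only call in the list, while 1.73% of all genes were called higher.

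Cell wall genes gave some of the largest rises, while most of the list did not pass. Of 48 genes listed for wall proteins and their synthesis, 4 rose with all arrays and 6 without array 1, against 1.26% and 1.73% of all genes, and none fell. The median was 0.22 and then 0.03, and the calls went down to 1 on leaving out any Htt103Q array, Htt25Q array 2 or any ume1 array. PIR3 and NCW2, described above, were followed by SRL3, which the list held although it is not known as a wall protein. SRL3 measured 8.27, 8.55 and 8.51 in Htt103Q, against 5.86, 6.15 and 7.05 in Htt25Q (2.09, adjusted p = 0.0317, and 1.84 with adjusted p = 0.0418), and passed in 2 of 9 fits. GSC2, the alternative catalytic subunit of glucan synthase, had a small difference with tight arrays. It measured 9.42, 9.46 and 9.37 in Htt103Q, against 8.75, 8.84 and 8.84 in Htt25Q, and 9 of 9 fits kept the rise of 0.61 (adjusted p = 0.00341, and 0.58 with adjusted p = 0.00533 without array 1). The probe sets of GSC2 gave different sizes: 6 further ones differed by 1.69 to 2.74 with all arrays and by 0.75 to 1.88 without array 1. None of them passed either way, and Htt25Q array 1 was the lowest in each. PST1, a wall protein that rises when the wall is damaged, measured 11.20, 11.46 and 11.35 in Htt103Q, against 8.49, 9.43 and 10.08 in Htt25Q, and passed only without array 1 (1.58, adjusted p = 0.0303, against 2.01 with adjusted p = 0.0648).

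The pathway that senses wall damage was represented by its kinase. SLT2, the MAP kinase of the cell wall integrity pathway, measured 9.76, 10.13 and 10.04 in Htt103Q, against 8.06, 8.36 and 8.59 in Htt25Q. It was 3.11-fold higher (1.64, adjusted p = 0.0103, and 1.5 with adjusted p = 0.0128 without array 1), and 7 of 9 fits kept it. KDX1, a paralog of SLT2 chosen after its values were seen, measured 5.43, 5.6 and 5.26 in Htt103Q, against 4.05, 3.98 and 4.39 in Htt25Q, and missed the threshold without array 1 (1.3, adjusted p = 0.0281, then 1.25 with adjusted p = 0.0514), passing in 2 of 9 fits. In the list of 25 signalling genes, BAG7 and SLT2 passed upward with all arrays, against 1.26% of all genes. Without array 1 they were joined by MID2, a wall sensor, which was 0.67 higher (adjusted p = 0.0195), and by BCK1, a kinase upstream of SLT2, which was lower by a log2 difference of -0.35 (adjusted p = 0.0366).

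Central carbon metabolism changed in single genes. IDP2, the cytosolic isocitrate dehydrogenase, measured 7.86, 7.91 and 7.90 in Htt103Q, against 6.87, 6.42 and 6.56 in Htt25Q, a rise of 1.27 (adjusted p = 0.0084, and 1.40 with adjusted p = 0.00268 without array 1) that 8 of 9 fits kept. CIT3, a mitochondrial citrate synthase, rose by 1.06 to 4.70, 4.90 and 4.60 in Htt103Q, against 3.54, 3.67 and 3.80 in Htt25Q (adjusted p = 0.0197, and 0.036 without array 1). SFC1, the succinate-fumarate carrier, rose by 1.16 with all arrays (adjusted p = 0.0396) and missed the threshold without array 1 (adjusted p = 0.0706). These were the 3 calls among 33 genes of the tricarboxylic acid cycle, glyoxylate cycle and gluconeogenesis, against 1.26% of all genes higher. Without array 1 there were 2, against 1.73%. CIT3 passed in 5 of 9 fits and SFC1 in 1. Enzymes of fructose 2,6-bisphosphate, a signal that promotes glycolysis, were chosen for mention after their values were seen. FBP26, which breaks it down, measured 8.39, 8.50 and 8.26 in Htt103Q, against 7.39, 7.06 and 7.33 in Htt25Q (1.12, adjusted p = 0.00842, and 1.19 with adjusted p = 0.0114 without array 1). PFK27, which makes it, measured 4.81, 4.82 and 4.58 in Htt103Q, against 4.20, 7.03 and 6.59 in Htt25Q, where array 1 lay below the Htt103Q arrays. It passed only without array 1 (-2.08, adjusted p = 0.0447, against -1.21 with adjusted p = 0.596 for all arrays). NTH1, a trehalase, rose by 0.58 (adjusted p = 0.0396, and 0.64 with adjusted p = 0.0329 without array 1) as the only call with all arrays among 20 genes of trehalose and glycogen. NTH1 passed in 2 of 9 fits and FBP26 in 8.

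Genes of respiration had mostly positive differences with all arrays, and a median near 0 without Htt25Q array 1. Of 42 nuclear genes of oxidative phosphorylation, 35 had a positive difference with all arrays but 23 without Htt25Q array 1, and the median was 0.35 and then 0.01. Relative to the Htt103Q mean, the list's median was -0.96 in Htt25Q array 1, and 0.04 and -0.06 in arrays 2 and 3. Limma called 0 of the 42 in either fit, with 2 at an unadjusted p under 0.05 for all arrays. The 8 genes of mitochondrial DNA had 0 calls and 0 at an unadjusted p under 0.05. COX1, a subunit of cytochrome oxidase, measured 11.68, 12.08 and 12.27 in Htt103Q, against 11.67, 12.18 and 11.80 in Htt25Q. It differed by 0.13, and by 0.02 without array 1. Other genes of mitochondrial DNA gave low signal, such as COX2 at 2.07 to 3.46 and ATP6 at 2.96 to 4.40, so a change in them could be missed. Among 71 mitochondrial ribosomal proteins, IMG2 alone passed with all arrays, at 7.74, 7.70 and 7.73 in Htt103Q and 7.35, 7.44 and 7.46 in Htt25Q (0.30, adjusted p = 0.0198, and 0.27 with adjusted p = 0.0149 without array 1), and 6 of 9 fits kept it. That is 1 call of 71, near the 1.26% of all genes called higher. Without array 1, 2 genes of the list were called higher, against 1.73% of all genes.

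Genes that build ribosomes were lower in Htt103Q across the list. Of 153 genes, none had a positive difference with all arrays and 2 had one without Htt25Q array 1. In 117 of the 153 (76.5%) the Htt103Q arrays lay wholly below the Htt25Q arrays, against 12.8% of all genes. The adjusted test passed 10 with all arrays and 12 without array 1, against 0.937% and 1.34% of all genes lower. Of these calls, 5 passed both ways. With all arrays, 95 genes of the list had an unadjusted p under 0.05. The count over all 9275 probe sets was 1146, but these include 2443 with no gene symbol, so the shares are not like for like. The median of the list was -0.86 and then -0.55. Relative to the Htt103Q mean, it was 1.49 in Htt25Q array 1 and 0.56 in each of arrays 2 and 3, while the Htt103Q arrays lay at 0.19, -0.03 and -0.18. The higher value of array 1 accompanied its shortened RNA, whose part in it was not tested, and arrays 2 and 3 lay above the 3 Htt103Q arrays without it. The calls numbered 0 without Htt103Q array 2, 2 without Htt103Q array 3, and 3 to 9 without each of the other 6 arrays.

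NSR1, a nucleolar protein that binds pre-rRNA, fell to 9.98, 9.64 and 9.45 in Htt103Q, against 11.46, 11.46 and 11.28 in Htt25Q. It was 3.27-fold lower (-1.71 ± 0.15 SE, adjusted p = 0.0076, and -1.68 with adjusted p = 0.0151 without array 1), and 8 of 9 fits kept it. DBP2, an RNA helicase, had a pair of probe sets that moved alike. The one with the higher mean measured 9.90, 9.11 and 9.12 in Htt103Q, against 11.52, 11.29 and 11.01 in Htt25Q (-1.89, adjusted p = 0.0232, and -1.77 with adjusted p = 0.0411 without array 1), and the other differed by -1.83 (adjusted p = 0.0463, and -2.06 with adjusted p = 0.0401). RNT1, the RNase III that cuts pre-rRNA, measured 6.73, 6.37 and 5.93 in Htt103Q, against 7.82, 7.87 and 7.87 in Htt25Q (-1.51, adjusted p = 0.0197, and -1.53 with adjusted p = 0.0374). RNT1 passed in 5 of 9 fits, and the probe sets of DBP2 in 3 and 2. SLX9, which helps export small subunits, measured 6.63, 6.63 and 6.67 in Htt103Q, against 7.68, 7.56 and 7.35 in Htt25Q (-0.89, adjusted p = 0.0114, and -0.81 with adjusted p = 0.0146), and 7 of 9 fits kept it. The ribosomal proteins themselves gave no calls. Of 79 measured, limma called 0, 2 had an unadjusted p under 0.05, and the median was -0.08, then -0.04 without array 1. Among 35 subunits and factors of RNA polymerases I and III, RPA49, a subunit of polymerase I, fell with all arrays (-0.91, adjusted p = 0.0329) and missed the threshold without array 1 (adjusted p = 0.0611), passing in 1 of 9 fits.

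Some further genes that fell were chosen after their values were seen, so they describe no group. TCD2, an enzyme that modifies a base beside the anticodon, measured 6.98, 6.78 and 6.75 in Htt103Q, against 7.81, 7.42 and 7.57 in Htt25Q (-0.77, adjusted p = 0.0316, and -0.67 with adjusted p = 0.0331 without array 1). DUS1, a tRNA dihydrouridine synthase, differed by -1.22 (adjusted p = 0.0329, and -1.29 with adjusted p = 0.0484), and TGS1, which adds methyl groups to the caps of small RNAs, by -1.40 (adjusted p = 0.0255, and -1.25 with adjusted p = 0.036). TRM11, a tRNA methyltransferase, and HMT1, an arginine methyltransferase of RNA-binding proteins, fell with all arrays, by log2 differences of -1.47 and -1.52, and missed the threshold without array 1, with adjusted p of 0.0581 and 0.0574. TCD2, DUS1 and TGS1 each passed in 3 of 9 fits, TRM11 in 2 and HMT1 in 1. ETT1, a factor in translation termination, was named by its place among the calls that all 9 fits kept. It measured 6.90, 6.97 and 6.96 in Htt103Q, against 7.70, 7.72 and 7.82 in Htt25Q (-0.80, adjusted p = 0.0017, and -0.83 with adjusted p = 0.00457).

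Several genes for obtaining phosphate fell in Htt103Q. Yeast short of phosphate switches them on through the factor Pho4. Of 27 genes in the phosphate list, 4 fell with all arrays and the same 4 without Htt25Q array 1, against 0.937% and 1.34% of genes, and none rose. In 13 of 27 (48.1%) the Htt103Q arrays lay wholly below the Htt25Q arrays, against 12.8% of all genes, and in 5 of 27 (18.5%) they lay wholly above, against 11.3% of all genes. With all arrays 8 of the 27 differences were positive, and without array 1 there were 6. The median of the list was -0.40, then -0.27 without array 1. The count was 0 without Htt103Q array 2 or 3, 1 without each ume1 array and 6 without Htt25Q array 2.

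PHM6, a gene of the regulon, fell to 4.14, 3.69 and 3.34 in Htt103Q, against 7.35, 6.54 and 7.03 in Htt25Q. It was 9.53-fold lower (-3.25, adjusted p = 0.0209, and -3.06 with adjusted p = 0.0404 without array 1), and 6 of 9 fits kept it. PHO5, the secreted acid phosphatase, measured 7.57, 7.66 and 7.81 in Htt103Q, against 11.30, 9.64 and 10.40 in Htt25Q. Its Htt103Q arrays were close to each other and the Htt25Q arrays were not (-2.77, or 6.8-fold, adjusted p = 0.0311, and -2.34 with adjusted p = 0.0149), and 2 of 9 fits kept it. PHO84, the high-affinity phosphate transporter, measured 9.02, 8.61 and 8.55 in Htt103Q, against 10.80, 10.50 and 11.66 in Htt25Q (-2.26, adjusted p = 0.0255, and -2.35 with adjusted p = 0.0404). VTC3, of the complex that makes polyphosphate, was 2.21-fold lower (-1.14, adjusted p = 0.0317, and -1.01 with adjusted p = 0.0453). PHO84 passed in 4 of 9 fits and VTC3 in 2. Some relatives lay in the same direction without passing. SPL2, which curbs low-affinity uptake, measured 4.52, 4.16 and 3.88 in Htt103Q, against 7.09, 5.5 and 6.71 in Htt25Q (-2.25, adjusted p = 0.0656, and -1.92 without array 1), and GIT1, a glycerophosphoinositol transporter, measured 2.79, 2.69 and 2.79 in Htt103Q, against 5.68, 3.89 and 5.79 in Htt25Q (-2.36, adjusted p = 0.0806, and -2.08 without array 1). The regulators PHO4, PHO80 and PHO85 differed by 0.36, 0.01 and 0.18, and none passed. PHM8, a phosphatase and 1 of the 8 members with a positive difference, measured 6.81, 6.92 and 6.92 in Htt103Q, against 3.87, 5.26 and 6.74 in Htt25Q (1.6, adjusted p = 0.38, and 0.88 with adjusted p = 0.44 without array 1).

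**Figure D4:**
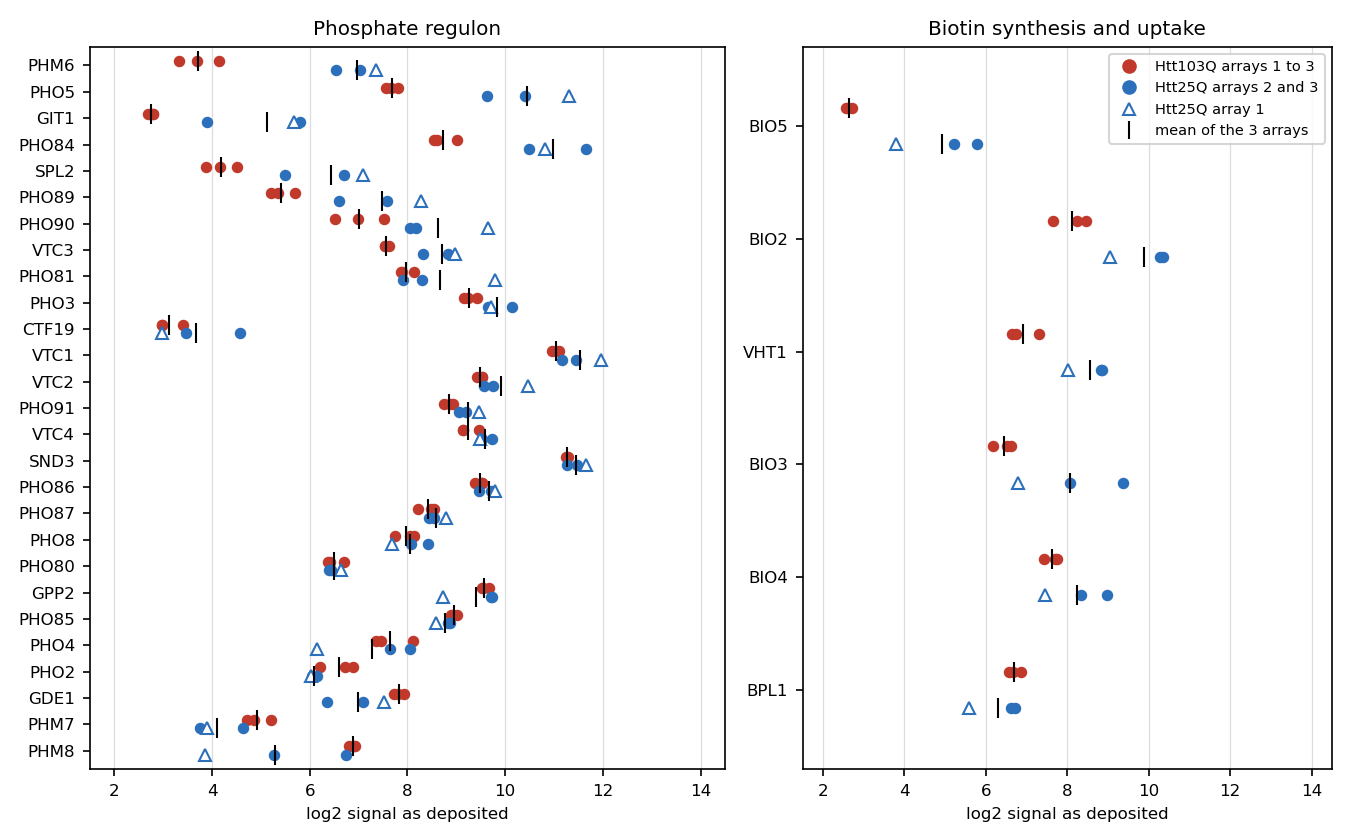
Deposited log2 signal in each array for the 27 genes of the phosphate list (left) and the 6 of the biotin list (right), ordered by log2 difference. Htt103Q arrays (red) are drawn above Htt25Q arrays (blue; array 1 as an open triangle); BIO5, BIO2 and VHT1 have Htt25Q array 1 between the Htt103Q arrays and Htt25Q arrays 2 and 3.

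Genes for biotin, the vitamin that carboxylases need, gave calls only without Htt25Q array 1. Of 6 genes, limma called 0 with all arrays (4 at an unadjusted p under 0.05). Without array 1 it called 3, all lower in Htt103Q, against 1.34% of all genes. The medians were -1.65 with all arrays and -2.06 without array 1. BIO5, which takes up a biotin precursor, measured 2.58, 2.61 and 2.71 in Htt103Q, against 3.80, 5.22 and 5.78 in Htt25Q. The difference was -2.30 with all arrays (adjusted p = 0.113) and -2.87 without array 1 (adjusted p = 0.0226). BIO2, biotin synthase, measured 8.23, 8.46 and 7.66 in Htt103Q, against 9.05, 10.35 and 10.28 in Htt25Q (-1.77, adjusted p = 0.1, and -2.19 with adjusted p = 0.0202). VHT1, the biotin transporter, measured 7.31, 6.65 and 6.75 in Htt103Q, against 8.02, 8.85 and 8.82 in Htt25Q (-1.66, adjusted p = 0.0669, and -1.93 with adjusted p = 0.0371). In these 3 genes the groups did not overlap even with array 1, which lay nearest to Htt103Q. Across the list, Htt103Q lay wholly below Htt25Q in 4 of 6 genes, against 12.8% of all genes. BPL1, the ligase that attaches biotin, differed by 0.03 without array 1.

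Iron genes varied among the arrays of each group and gave no calls. Of 29 genes of the iron regulon, limma called 0 in either fit, with 3 at an unadjusted p under 0.05 for all arrays, although 24 had a positive difference and the median was 0.41, then 0.69 without Htt25Q array 1. FIT2, a wall protein that holds iron carriers, chosen after its values were seen, measured 11.96, 8.86 and 12.69 in Htt103Q, against 11.32, 8.71 and 7.95 in Htt25Q. High values thus occurred in Htt103Q arrays 1 and 3 and in Htt25Q array 1, and low ones in Htt103Q array 2 and in Htt25Q arrays 2 and 3. ARN1, an iron carrier transporter, showed the same split, with 9.06, 6.45 and 9.66 in Htt103Q and 8.85, 7.12 and 6.36 in Htt25Q. Among 19 zinc genes, IZH1, a membrane protein of zinc homeostasis, fell to 8.42, 8.06 and 7.86 in Htt103Q, against 9.29, 9.35 and 9.54 in Htt25Q (-1.28, adjusted p = 0.0139, and -1.33 with adjusted p = 0.0262), and 8 of 9 fits kept it. YKE4, a zinc transporter chosen after its values were seen, was 2.52-fold higher, at 9.08, 9.11 and 9.01 in Htt103Q and 7.70, 7.78 and 7.71 in Htt25Q (adjusted p = 0.0017, and 0.00631 without array 1), and all 9 fits kept it.

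Transporters of other nutrients and of toxic compounds included the largest fall. AQR1, a plasma membrane exporter of organic acids and other compounds, fell to 3.81, 2.55 and 2.37 in Htt103Q, against 5.99, 6.55 and 6.26 in Htt25Q. It was 10.2-fold lower (-3.35 ± 0.41 SE, adjusted p = 0.0209, and -3.49 with adjusted p = 0.035 without array 1), and 4 of 9 fits kept it. It was the only call among 28 drug and weak acid transporters with all arrays. Without array 1, TPO1, which exports polyamines, joined it at -1.59 (adjusted p = 0.0411), as did YOR1, an ABC transporter, at -0.86 (adjusted p = 0.0476). HXT2, a high-affinity glucose transporter, measured 5.51, 5.01 and 4.78 in Htt103Q, against 7.28, 8.43 and 6.99 in Htt25Q, and missed the threshold without array 1 (-2.46, adjusted p = 0.0402, then -2.61 with adjusted p = 0.0562). HXT1, a low-affinity one, was low on all arrays and fell by 0.56 on the log2 scale (adjusted p = 0.0311, and 0.0411 without array 1). FCY2, the purine and cytosine permease, measured 8.61, 8.79 and 8.79 in Htt103Q, against 9.89, 10.23 and 10.46 in Htt25Q (-1.47, adjusted p = 0.0317, and -1.62 with adjusted p = 0.0311). FCY2 passed in 3 of 9 fits, and HXT1 and HXT2 in 2 each.

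A few genes of lipid and sterol synthesis gave small falls. PSD1, which makes phosphatidylethanolamine, measured 9.27, 9.20 and 9.22 in Htt103Q, against 9.97, 10.01 and 9.85 in Htt25Q (-0.71, adjusted p = 0.0255, and -0.70 with adjusted p = 0.0476 without array 1). IDI1, of the route to sterols, differed by -0.35 (adjusted p = 0.0317, and -0.36 with adjusted p = 0.0442). PSD1 passed in 4 of 9 fits and IDI1 in 2. Of 37 lipid genes, 2 fell with all arrays and 2 without array 1, and of 30 sterol genes, 1 and 3 fell. None was called higher in either list. The shares of all genes called lower were 0.937% and 1.34%.

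A pair of meiotic genes moved in opposite directions at low signal. SPO11, the enzyme that cuts DNA to start meiotic recombination, measured 2.73, 2.63 and 2.68 in Htt103Q, against 4.23, 4.62 and 4.49 in Htt25Q. It was 3.40-fold lower (-1.77, adjusted p = 0.00093, and -1.87 with adjusted p = 0.000285 without array 1). SPO1, a meiotic protein related to phospholipases, measured 3.61, 3.71 and 3.43 in Htt103Q, against 2.34, 2.55 and 2.36 in Htt25Q (1.17, adjusted p = 0.00511, and 1.13 with adjusted p = 0.0128). Both passed in all 9 fits, and no other gene of the 32 early meiotic ones passed in either fit. PRM7, a gene induced by pheromone, fell to 6.48, 6.06 and 5.83 in Htt103Q, against 7.74, 9.43 and 8.75 in Htt25Q (-2.51, adjusted p = 0.0463, and -2.96 with adjusted p = 0.0114 without array 1), with 1 of 9 fits keeping the call. Its second probe set passed only without array 1 (-3.54, adjusted p = 0.0149, against -2.40 with adjusted p = 0.359 for all arrays). PRM7 was the only call among 32 genes of the pheromone response.

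Further large falls were in genes of less certain role. YOR338W measured 6.28, 5.74 and 5.35 in Htt103Q, against 7.65, 8.84 and 8.64 in Htt25Q (-2.59, adjusted p = 0.0311, and -2.95 with adjusted p = 0.0128 without array 1), and 2 of 9 fits kept it. YGR035C measured 3.43, 3.13 and 3.10 in Htt103Q, against 5.29, 5.48 and 4.82 in Htt25Q (-1.98, adjusted p = 0.0107, and -1.93 with adjusted p = 0.025), and 7 of 9 fits kept it. VID24, which brings gluconeogenic enzymes to degradation and was chosen after its values were seen, was 2.81-fold lower, at 7.09, 6.81 and 6.95 in Htt103Q and 8.24, 8.77 and 8.32 in Htt25Q (adjusted p = 0.0121, and 0.0149 without array 1), and 7 of 9 fits kept it. The adjacent genes YCR099C and EMA35 were the 1 pair of neighbours of which both members passed in both fits, with rises of 1.06 and 1.21, which passed in 2 and 8 of 9 fits.

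Removing Htt25Q array 1 lost 46 calls and gained 117. In 65 of the 117, array 1 lay nearer to the Htt103Q mean than arrays 2 and 3 did, and 1 of the 117 had the opposite sign with all arrays. Among probe sets with a gene symbol, the largest gained rises, after SSA3, were GRE1, a hydrophilin induced by stress, at 2.06 (adjusted p = 0.048, against 1.68 with adjusted p = 0.136 for all arrays), and SPG4, a stationary phase gene, at 1.80 (adjusted p = 0.0128, against 2.41 with adjusted p = 0.0836). HPF1, a mannoprotein of the wall, measured 9.48, 9.06 and 9.45 in Htt103Q, against 9.15, 7.45 and 7.90 in Htt25Q, so that array 1 lay among the Htt103Q arrays (1.66, adjusted p = 0.0404, without it). TKL2, a transketolase, was called by 1 probe set with all arrays (1.67, adjusted p = 0.0377) and by another without array 1 (1.51, adjusted p = 0.0461). Those with a symbol that were lost with the largest differences, after HXT2, were YGR079W (-2.33, adjusted p = 0.0396, then -2.26 with adjusted p = 0.0706), the mitochondrial carrier YMC2 (-1.81, adjusted p = 0.0402, then -1.78 with adjusted p = 0.0706) and the adenine deaminase AAH1 (-1.69, adjusted p = 0.0463, then -1.44 with adjusted p = 0.0521). These lost falls changed little in size, and YGR079W and YMC2 passed in 1 of 9 fits and AAH1 in 0. The call of TKL2 with all arrays passed in 1.

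The calls that withstood the loss of any 1 array numbered 13. They were the rises of DAK2, ROQ1, BAG7, SSA4, SPG1, CRG1, OPI10, YKE4, SPO1, GSC2 and YBR062C and the falls of ETT1 and SPO11. YBR062C, which is related to ubiquitin ligases, had the smallest of these differences, at 9.52, 9.66 and 9.56 in Htt103Q and 9.13, 9.14 and 9.05 in Htt25Q (0.48, adjusted p = 0.00827, and 0.49 with adjusted p = 0.013 without array 1).

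The remaining lists gave at most 1 call with all arrays. Limma called 0 of 62 genes of amino acid synthesis under Gcn4, 0 of 32 of sulfur assimilation, 0 of 29 permeases, 0 of 23 of the kynurenine pathway and NAD, 0 of 32 of autophagy, 0 of 27 glutamine-rich and prion proteins, 0 of 32 of the cell cycle, 0 of 47 of translation, 0 of 27 of nitrogen catabolism and 0 of 31 of peroxisomes. At an unadjusted p under 0.05 with all arrays these lists held 6, 2, 7, 2, 6, 4, 6, 7, 5 and 3 genes, in the same order. Without array 1, limma called 1 permease, lower in Htt103Q, and no gene of the other lists just named. ATG8, which coats autophagosomes, measured 9.04, 9.86 and 9.89 in Htt103Q, against 7.58, 8.31 and 8.59 in Htt25Q, and did not pass (1.44, adjusted p = 0.142, and 1.15 with adjusted p = 0.187 without array 1). For ARO1, of aromatic amino acid synthesis, the values were 9.62, 9.54 and 9.34 in Htt103Q and 10.25, 9.88 and 10.15 in Htt25Q, without a call (-0.59, adjusted p = 0.0669, and -0.51 without array 1). Of 41 genes of actin patches and endocytosis, 37 had a positive difference with all arrays, against 48.9% of all genes, and 36 without array 1, with medians of 0.30 and 0.28. Only MYO3, a type I myosin, passed, at 7.85, 7.99 and 7.93 in Htt103Q and 7.53, 7.44 and 7.56 in Htt25Q (0.42, adjusted p = 0.0495, and 0.0722 without array 1). That is 1 call of 41, near the 1.26% of all genes, and it passed in 1 of 9 fits. No gene in the list passed without array 1. Neither 7 genes specific to a cells nor 2 specific to alpha cells held a call, with 0 in each at an unadjusted p under 0.05.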

How the data were processed

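The values used were the authors' deposited log2 intensities. How they were summarised and normalized from the probes was not given in the sources used here. Per the labels' protocols, biotin-labelled RNA from total RNA was hybridised. Of 9335 probe sets, 60 controls were left out. Of the rest, 6504 had 1 gene in the platform annotation given, 328 several and 2443 none, and symbols were taken from the reference gene table, and a gene with several probe sets was represented in list counts by the one with the highest mean over the 6 arrays. Deposited values were used without renormalization, since the 9 arrays of Htt103Q, Htt25Q and the ume1 strain share 1 lowest value (2.06) and array medians of 6.35 to 6.47.

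Limma (version 3.58.1, R 4.3.3) fitted the 3 group means to these 9 arrays, with two-sided moderated tests and Benjamini-Hochberg adjustment over 9275 probe sets, and again without Htt25Q array 1. Replicates were not paired. Precision is limited by the number of arrays. No detection call was used.

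Gene lists (49) and the members of the comparison were chosen with earlier results of these data known. The text names the 12 largest rises and falls called in both fits without overlap between arrays, up to 4 called genes of a list (or those with the smallest p), the 6 largest rises and falls gained and the 4 largest changes lost without array 1, and the strain's markers. Genes outside this rule were chosen after their values were seen. Promoter and protein sequences were not used here.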

Additional observations from a re-analysis of the deposited data

How the results depend on the processing

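The 134 calls with all arrays became 31 with only the 6 arrays compared (26 of them among the 134), 438 with all 15 arrays as deposited, 412 with all 15 after quantile normalization, and 66 with a replicate block. The block is no paired result, since arrays of the same number correlated by 0.0694, 0.112 and -0.0872 in their deviations from the group means. Array weights gave 1221, but the weights did not converge. Leaving out 1 array gave 14 to 205 calls. Without Htt25Q array 1, the 205 calls became 77 with only the 2 groups compared and 217 after quantile normalization of the 9 arrays. A fit without Htt25Q array 1 and ume1 array 1, chosen after seeing the data, gave 186. Quantile normalization (127), median centring (156) and omission of the dimmest 25% of probe sets (177) kept the count with all arrays within 1.5 times. Of the named probe sets, none that had been called changed sign under these alternatives. Leaving out arrays could not have changed it, since the groups did not overlap in any called probe set. For the named probe sets, 1735 alternative values stayed on their side of the threshold, 122 newly passed and 460 no longer passed. Fits that leave out arrays rest on fewer of them, and the causes of the other shifts were not tested.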
